A study of Mus musculus with 5 samples.

Results

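The BCL2 family decides whether the outer membrane of mitochondria is opened in the intrinsic pathway of apoptosis. It was examined in cultured 4T1 cells, a mouse mammary carcinoma line, by RNA sequencing of clones without and with the Hippo pathway coactivator TAZ. The members were the genes Bcl2, Bcl2l1, Mcl1, Bax, Bak1, Bid, Bad, Bcl2l11, Bbc3 and Pmaip1, chosen by name with earlier results of these data known. Of these 10 genes, 9 were found by symbol among the 13143 genes of the deposited count table, and Pmaip1 was not analysed here. All 9 passed the filter on low counts, which kept 11975 genes.

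The TAZ-KO group held 2 clones and the WT group 3 clones, each with 1 library, grown without treatment. Cells of a single Cas9-expressing clone of the line received, by lentivirus, a guide RNA that cuts Wwtr1 (the gene encoding TAZ), followed by puromycin. Both TAZ-KO clones carry that same guide, whereas WT clones are Cas9 clones that received no guide, so guide vector, puromycin selection and founder cannot be told apart from loss of TAZ. In the deposited table the columns of both TAZ-KO libraries are named with YAP, and the groups here follow the sample titles and genotypes. Each library is 1 clone, so the spread behind every p-value is that between libraries. The authors corrected the in vitro libraries for batch, and the sample titles name no batch. Differences between clones and any batch therefore cannot be told apart, also where WT clone 1 is set apart from WT clones 2 and 3. In bulk libraries, fewer cells with a transcript and less transcript per cell cannot be told apart.

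BCL2 family proteins fall into 3 classes. Pro-survival members (Bcl2, Bcl2l1, which encodes BCL-XL, and Mcl1) hold the effectors Bax and Bak1 in check, and the effectors form pores that release cytochrome c. BH3-only proteins (Bid, Bad, Bcl2l11, which encodes BIM, Bbc3, which encodes PUMA, and Pmaip1, which encodes NOXA) sense stress and either bind the pro-survival members or activate the effectors. The family bears on the study's question of whether TAZ protects tumour cells from apoptotic death. The paper reports more apoptosis in TAZ-KO than in WT tumours of immunocompetent mice, and no such difference in immune-deficient mice. In culture, it reports no significant difference in cell death between knockdown cells and their controls. The levels given here are from cultured clones, and death of these clones was not measured here.

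In TAZ-KO clones the transcripts of Bbc3 and Bid, and to a smaller degree those of Bcl2l1, Bax, Bcl2 and Bak1, lay below their level in every WT clone, as did 18.6% of all tested genes. These 6 members include genes that favour death and genes that oppose it. Mcl1, Bad and Bcl2l11 overlapped between the groups. Bcl2l11 was 4.33-fold apart among WT clones alone. No member passed the quasi-likelihood test of edgeR adjusted over all 11975 genes, in which 6 genes (0.0501%) were called and 5 (0.0418%) were lower. No member passed limma-voom either. Bbc3 and Bid passed DESeq2, which called 5.25% of all genes and 3.11% as lower, and both calls were lost when either TAZ-KO clone, WT clone 2 or WT clone 3 was left out.

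Libraries held 14695384 to 16452147 counts. Levels (CPM) are counts relative to the TMM-scaled library total, log2 fold changes are TAZ-KO over WT, and adjusted p-values are from edgeR with Benjamini-Hochberg adjustment over all genes tested unless DESeq2 is named. Wwtr1 was at 129 and 152 CPM in the TAZ-KO clones 1 and 2, against 659.7, 312 and 315 CPM in WT clones 1, 2 and 3 (log2 fold change -1.61, SE 0.40, adjusted p = 0.19), which does not measure the protein. The paper reports that TAZ protein was absent from TAZ-KO cells on Western blots. It also reports editing of every Wwtr1 allele by sequencing and lower mRNA of the gene by RT-qPCR. Over the log2 levels of all tested genes, WT clone 1 correlated at 0.946 and 0.951 with TAZ-KO clones 1 and 2, and at 0.922 and 0.923 with WT clones 2 and 3. Results are therefore also given without WT clone 1. The epithelial markers Krt8, Krt18 and Krt7 were at 271 to 2210 CPM in all libraries, Epcam at 24.5 to 119.5 CPM and Cdh1 at 246 to 658 CPM, whereas Cldn7 was at 0.267 to 3.73 CPM. The leukocyte gene Ptprc did not exceed 0.543 CPM, the endothelial gene Pecam1 1.09 CPM and the macrophage gene Lyz2 5.63 CPM.

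The promoters of 4 members are shown as examples that hold a short motif of TEAD, FOXO or MYC factors. All 9 members had promoter windows in RefSeq (build GRCm38.p6), 15 in all, each of 300 bases with 250 before and 50 after a transcription start. They were searched on both strands for GGAATG, the core bound by TEAD factors through which TAZ acts on DNA, for TGTTTAC, bound by FOXO factors, for the E-box CACGTG, bound by MYC with MAX, and for TGANTCA, bound by AP-1. Capitals mark the matches, and the motifs were chosen after the sequences were seen. The farthest upstream window of Bcl2l1 (chr2:152831679-152831978, minus strand) has a TEAD match 108 bases before the start, and 14.7% of all 32851 promoter windows hold this motif. The window of Bbc3 at chr7:16310011-16310310 (plus strand) has a FOXO match 167 bases before the start, and that of Bcl2l11 at chr2:128125788-128126087 (plus strand) has one 227 bases before, against 3.65% of all windows. The window of Bax (chr7:45466849-45467148, minus strand) has 2 E-boxes, beginning 9 bases before and 35 bases after the start, where 7.15% of all windows hold at least 1.
Bcl2l1: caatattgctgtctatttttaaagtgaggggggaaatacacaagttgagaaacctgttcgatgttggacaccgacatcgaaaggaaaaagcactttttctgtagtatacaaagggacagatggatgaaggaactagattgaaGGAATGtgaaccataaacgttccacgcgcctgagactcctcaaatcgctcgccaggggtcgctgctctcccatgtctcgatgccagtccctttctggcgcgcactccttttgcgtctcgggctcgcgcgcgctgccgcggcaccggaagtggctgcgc
Bbc3: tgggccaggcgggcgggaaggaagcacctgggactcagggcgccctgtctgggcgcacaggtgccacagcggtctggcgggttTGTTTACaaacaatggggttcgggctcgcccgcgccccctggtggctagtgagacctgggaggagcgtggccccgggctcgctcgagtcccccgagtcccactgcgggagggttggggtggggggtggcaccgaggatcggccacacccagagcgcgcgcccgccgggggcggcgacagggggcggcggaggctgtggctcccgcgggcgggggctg
Bcl2l11: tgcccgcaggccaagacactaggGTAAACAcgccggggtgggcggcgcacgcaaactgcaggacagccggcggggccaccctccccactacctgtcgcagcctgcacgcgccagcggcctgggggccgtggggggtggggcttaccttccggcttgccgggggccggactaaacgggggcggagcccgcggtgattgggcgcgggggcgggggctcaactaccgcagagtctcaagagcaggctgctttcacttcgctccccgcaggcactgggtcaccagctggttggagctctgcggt
Bax: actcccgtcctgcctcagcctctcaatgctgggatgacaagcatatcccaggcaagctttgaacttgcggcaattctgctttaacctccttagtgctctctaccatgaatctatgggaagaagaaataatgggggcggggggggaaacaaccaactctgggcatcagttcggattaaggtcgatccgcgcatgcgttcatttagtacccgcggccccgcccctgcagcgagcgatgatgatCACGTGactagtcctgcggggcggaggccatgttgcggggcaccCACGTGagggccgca
Of the windows not printed, the single window of Mcl1 has a TEAD match 199 bases before the start and another window of Bbc3 has an E-box 64 bases before it. The TEAD motif was thus in 2 of 15 member windows, near its share of all windows. The FOXO motif and the E-box were each in 2 of the 15 as well, against 3.65% and 7.15% of all windows. Whether these counts exceed their shares was not tested. No window of a member holds the AP-1 motif, which is in 7.81% of all windows.

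Among the pro-survival genes, Bcl2l1 and Bcl2 had lower values in TAZ-KO, with no overlap between the groups, while Mcl1 overlapped. Bcl2l1 (chromosome 2, 152780668 to 152831728, minus strand), the gene of BCL-XL, was at 98.8 and 133 CPM in the TAZ-KO clones 1 and 2, against 168, 201 and 207 CPM in WT clones 1, 2 and 3. The groups did not overlap, and WT clone 1 was the nearest to TAZ-KO. The mean was 116 ± 24.3 CPM in TAZ-KO and 192 ± 21.1 CPM in WT (SD, n = 2 and 3), a 1.65-fold lower level (log2 fold change -0.73, SE 0.23) that did not pass edgeR over all genes (adjusted p = 0.234) or DESeq2 (adjusted p = 0.109).

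Bcl2 (chromosome 1, 106538178 to 106714274, minus strand), the founding member of the family, was at 37 and 42.4 CPM in TAZ-KO clones, against 56.4, 52.5 and 57.2 CPM in WT clones 1, 2 and 3. WT clones differed by at most 1.09-fold, and 4.26% of the 9186 genes with a mean of at least 10 CPM had a smaller ratio. The mean was 39.7 ± 3.78 CPM in TAZ-KO and 55.3 ± 2.49 CPM in WT (log2 fold change -0.48, SE 0.19, adjusted p = 0.281). Leaving out WT clone 1 barely moved the difference (log2 fold change -0.46, adjusted p = 0.0558).

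Mcl1 (chromosome 3, 95658788 to 95663176, plus strand), a short-lived protein that restrains BAK1 in particular, was at 343 and 374 CPM in TAZ-KO clones, against 344, 318 and 243 CPM in WT clones. The groups overlapped, since WT clone 1 matched TAZ-KO clone 1 and WT clone 3 was the lowest (log2 fold change 0.25, SE 0.23, adjusted p = 0.575). Divided by merged exon length, Mcl1 had the highest level of the 9 members in all 5 libraries, at 100.4 and 109.5 CPM per kilobase in TAZ-KO clones and 100.5, 93.1 and 71 in WT clones, and Bcl2 the lowest in all 5, at 4.04 to 6.24. In CPM Mcl1 was likewise the highest member in every library, whereas Bcl2 lay above Bad in each and so was not the lowest. The length scaling assumes reads along the whole transcript, and the sources name both a full-length and a 3' end library protocol. The level of Mcl1 per kilobase was 4.66 and 3.77 times that of Bcl2l1 in TAZ-KO clones, against 2.75, 2.13 and 1.58 times in WT clones 1, 2 and 3, so that Mcl1 made up a larger part of the pro-survival transcripts in TAZ-KO clones.

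**Figure D1:**
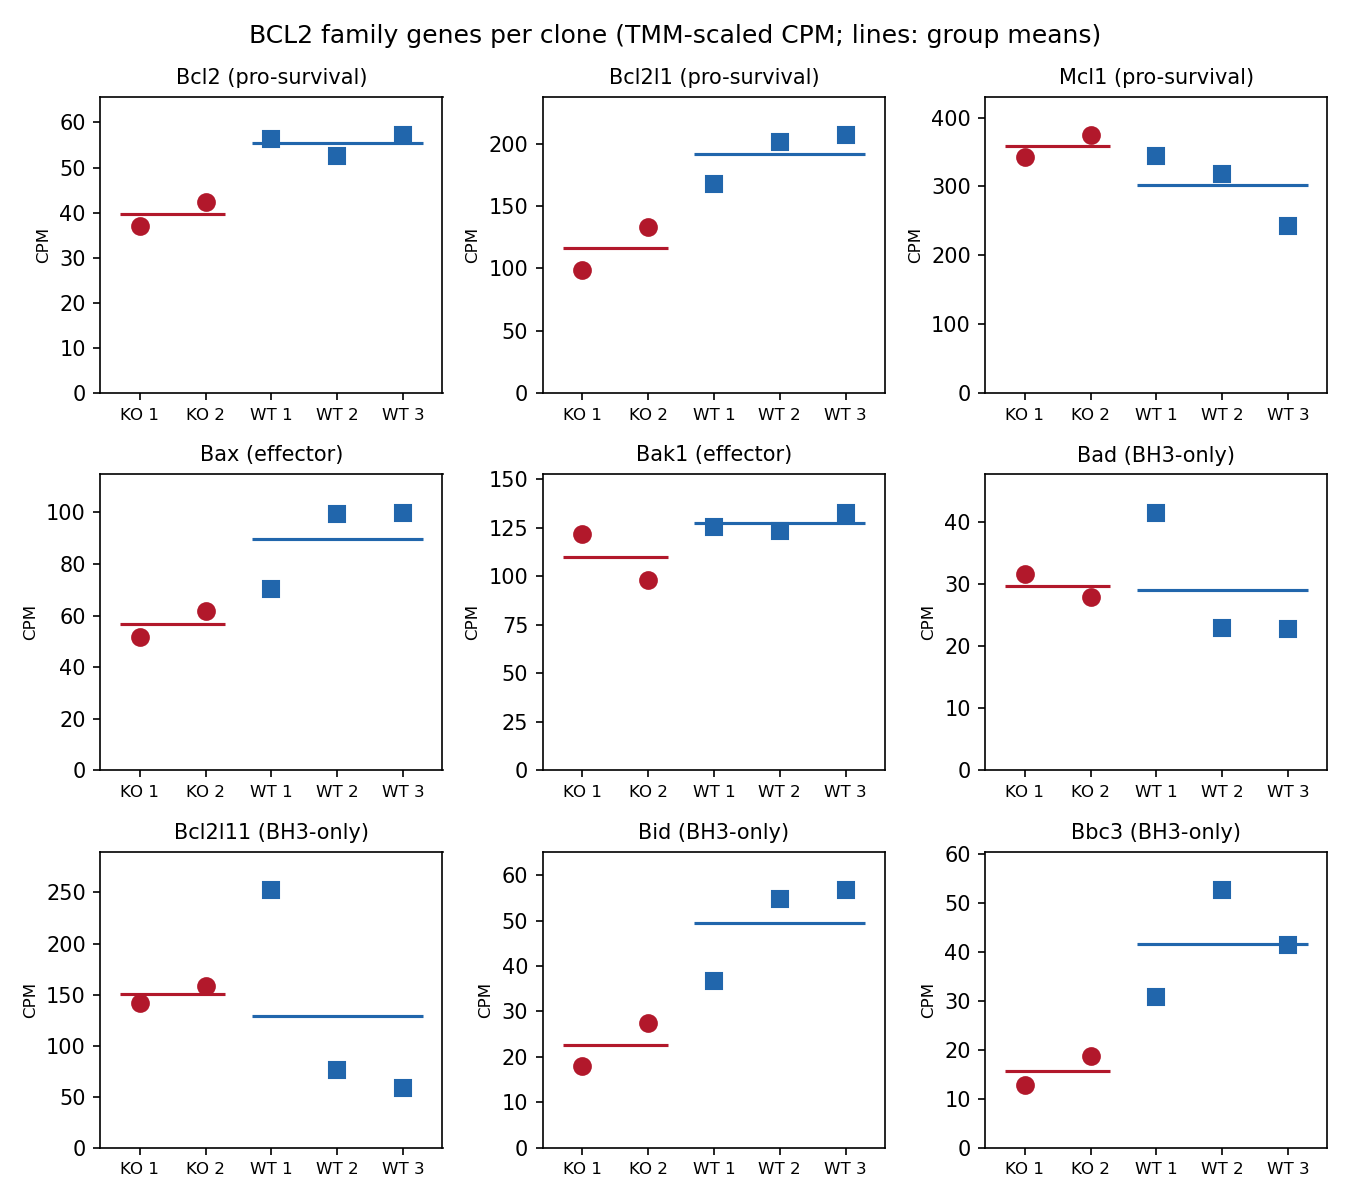
CPM (linear axis from 0) of the 9 BCL2 family genes in TAZ-KO clones (red circles) and WT clones (blue squares), 1 point per library, with lines at the group means. The TAZ-KO clones lie wholly below the WT clones in 6 panels, and in the Bcl2l11 panel WT clone 1 at 252 CPM lies above and WT clones 2 and 3 below the TAZ-KO clones.

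Both effector genes had lower values in TAZ-KO clones, Bax by more than Bak1. Bax (chromosome 7, 45461697 to 45466898, minus strand), a cytosolic effector that moves to mitochondria on activation, was at 51.8 and 61.6 CPM in TAZ-KO clones, against 70.2, 99.3 and 99.9 CPM in WT clones 1, 2 and 3. WT clone 1 lay nearer to TAZ-KO clone 2 than to the other WT clones. The mean was 56.7 ± 6.99 CPM in TAZ-KO and 89.8 ± 17 CPM in WT, 1.58-fold lower (log2 fold change -0.66, SE 0.24, adjusted p = 0.262). Bak1 (chromosome 17, 27019810 to 27029009, minus strand), the effector that resides in the mitochondrial membrane, was at 122 and 98.1 CPM in TAZ-KO clones, against 125, 124 and 133 CPM in WT clones. Its groups were separated only narrowly, by TAZ-KO clone 1 (log2 fold change -0.21, SE 0.20, adjusted p = 0.583). Per kilobase, Bak1 exceeded Bax in both TAZ-KO clones (50.7 and 40.8, against 32.8 and 39.1 for Bax) and in WT clone 1. Bax exceeded Bak1 per kilobase in WT clones 2 and 3 (63 and 63.4, against 51.3 and 55.2 for Bak1). In CPM Bak1 exceeded Bax in every library, so this switch depends on the length scaling.

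The BH3-only genes went different ways. Bbc3 (chromosome 7, 16308393 to 16318205, plus strand), whose product PUMA is a potent killer induced by p53 and by FOXO3, was at 12.8 and 18.7 CPM in the TAZ-KO clones 1 and 2, against 30.8, 52.7 and 41.6 CPM in WT clones 1, 2 and 3. The highest TAZ-KO clone was below the lowest WT clone. The smallest count behind these levels was 194 in TAZ-KO clone 1 (exact Poisson 95% interval 168 to 223, counting error only), so depth did not limit the comparison. The mean was 15.8 ± 4.19 CPM in TAZ-KO and 41.7 ± 11 CPM in WT, 2.64-fold lower (log2 fold change -1.40, SE 0.32). This was the largest difference among the 9 members and ranked 319 of 11975 genes by p (adjusted p = 0.163). Bbc3 fell in DESeq2 over all genes (adjusted p = 0.00754), a call lost without any 1 clone other than WT clone 1 (adjusted p = 0.072 to 0.482).

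Bid (chromosome 6, 120891930 to 120916853, minus strand), which caspase 8 cleaves to carry a death receptor signal to mitochondria, was at 17.9 and 27.5 CPM in TAZ-KO clones, against 36.8, 54.7 and 56.7 CPM in WT clones 1, 2 and 3. Again the groups did not overlap, and WT clone 1 was the lowest of its group. TAZ-KO clones differed from each other by 1.53-fold, a ratio larger than that of 91.3% of genes with a mean of at least 10 CPM. The mean was 22.7 ± 6.77 CPM in TAZ-KO and 49.4 ± 11 CPM in WT, 2.18-fold lower (log2 fold change -1.12, SE 0.31, adjusted p = 0.212). Bid fell in DESeq2 (adjusted p = 0.0439), a call likewise lost without any 1 clone other than WT clone 1 (adjusted p = 0.144 to 0.741).

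Bcl2l11 (chromosome 2, 128126038 to 128162547, plus strand), whose product BIM binds all pro-survival members and is a known FOXO target, was at 142 and 158 CPM in TAZ-KO clones, against 252, 76.1 and 58.2 CPM in WT clones 1, 2 and 3. TAZ-KO clones agreed within 1.11-fold, whereas WT clone 1 was above and WT clones 2 and 3 below them. The ratio of 4.33 between the highest and the lowest WT clone was larger than that of 96.6% of genes with a mean of at least 10 CPM, for which the median ratio was 1.49. The log2 fold change was 0.22 (SE 0.62, adjusted p = 0.865). Bad (chromosome 19, 6941861 to 6951899, plus strand), which is held inactive by 14-3-3 proteins when survival kinases phosphorylate it, was at 31.6 and 27.9 CPM in TAZ-KO clones, against 41.5, 22.9 and 22.8 CPM in WT clones (log2 fold change 0.03, SE 0.33, adjusted p = 0.963). WT clone 1 was the highest and WT clones 2 and 3 the lowest, the same order of groups as in Bcl2l11.

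Read against all genes, the members leaned to lower values in TAZ-KO. Of the 9 members, 5 were lower and 0 higher at an unadjusted p under 0.05 in edgeR, where 9.41% of all tested genes were lower. The TAZ-KO clones lay wholly below the WT clones in 6 members (Bcl2, Bcl2l1, Bax, Bak1, Bid and Bbc3) and in 18.6% of genes, and wholly above them in 0 members and in 18.7% of genes. At an unadjusted p under 0.05 in either direction there were 17.4% of genes, and in either direction 37.3% did not overlap. DESeq2 called 2 members, both lower, where it called 5.25% of genes in either direction and 3.11% as lower. The median log2 fold change of the members was -0.48, against -0.03 for all tested genes. The members were chosen with results of these data known, and no test over the list was made.

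Leaving out WT clone 1 had a larger effect than any other setting. Without it, edgeR called 5 members, among 38.7% of all genes called, and 4 of them fell (19.7% of all genes fell). These were Bbc3 (log2 fold change -1.57, SE 0.24, adjusted p = 0.00249), Bid (log2 fold change -1.29, SE 0.22, adjusted p = 0.0041), Bcl2l1 (log2 fold change -0.81, adjusted p = 0.0112) and Bax (log2 fold change -0.81, adjusted p = 0.00684). Bcl2l11 rose (log2 fold change 1.16, SE 0.18, adjusted p = 0.00279). The BIM transcript was thus 1 of the calls that a single control library decided. When any other clone was left out, edgeR and DESeq2 called 0 members, with 1 to 3 members at an unadjusted p under 0.05 in edgeR.

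**Figure D2:**
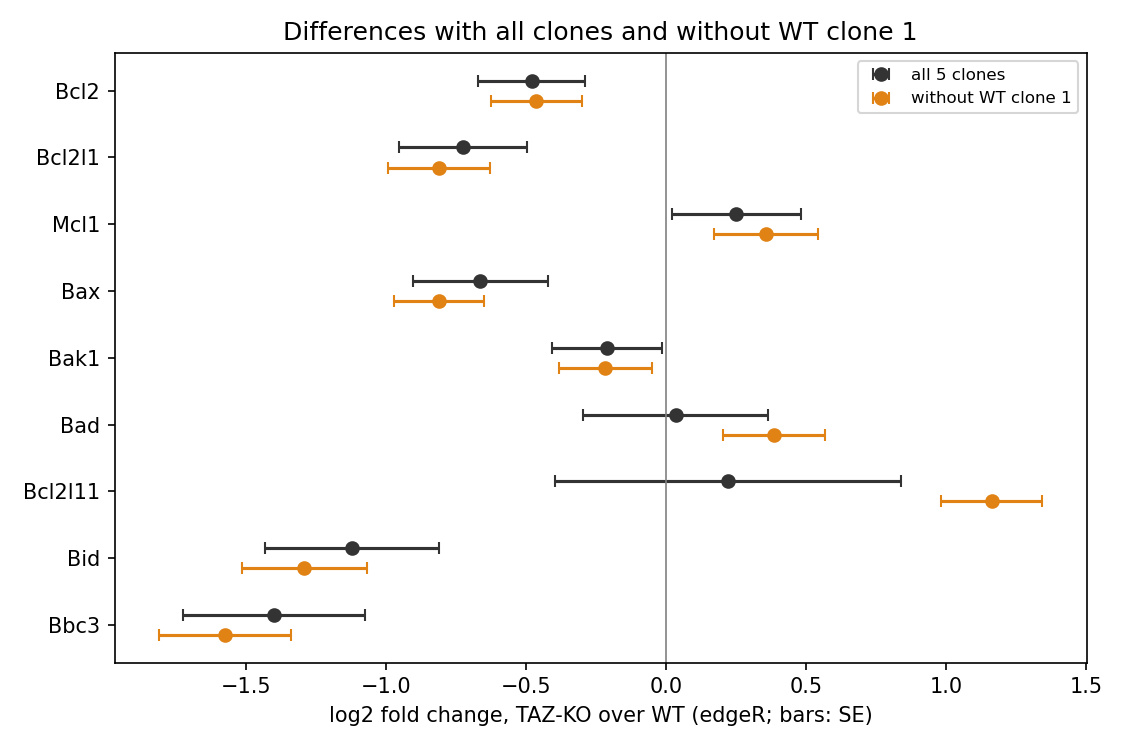
Log2 fold change of each member, TAZ-KO over WT, from edgeR with all 5 clones (black) and without WT clone 1 (orange), with bars of 1 SE. Bbc3, Bid, Bcl2l1 and Bax lie below 0 in both fits, and Bcl2l11 lies at 0.22 with all clones and at 1.16 without WT clone 1.

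The order of the libraries separated the members into sets. In Bcl2l1, Bax, Bid and Bbc3 (4 of 9) both TAZ-KO clones were lowest, WT clone 1 was intermediate and WT clones 2 and 3 were highest, an order found in 11.8% of all tested genes. In Bcl2l11 and Bad (2 of 9) WT clone 1 was highest, the TAZ-KO clones were intermediate and WT clones 2 and 3 were lowest, an order found in 10.2% of genes. Both orders were defined with WT clone 1 on the side of the TAZ-KO clones relative to WT clones 2 and 3. That placement therefore holds for any gene with either order and is not a result about the members. Bcl2, Mcl1 and Bak1 had neither order. WT clone 1 had the highest Wwtr1 level.

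The make-up of the BH3-only transcripts differed accordingly. Bcl2l11 made up 69.5% and 68.1% of the summed BH3-only CPM in the TAZ-KO clones 1 and 2, against 69.8%, 36.9% and 32.5% in WT clones 1, 2 and 3. The ratio of Bbc3 to Bcl2l11 was 0.0902 and 0.118 in TAZ-KO clones, against 0.122, 0.693 and 0.714 in WT clones. The CPM of PUMA transcripts relative to BIM transcripts was therefore lower in the TAZ-KO clones and WT clone 1 than in WT clones 2 and 3. The size of this ratio depends on the length scaling. Per kilobase Bbc3 was at 6.04 and 8.83 in TAZ-KO clones and 14.5 in WT clone 1, against 17.7, 19.7 and 31.4 for Bcl2l11. In WT clones 2 and 3 Bbc3 exceeded Bcl2l11 per kilobase (24.8 and 19.6, against 9.47 and 7.25). The summed CPM of the BH3-only genes over that of Bcl2, Bcl2l1 and Mcl1 was 0.427 and 0.423 in TAZ-KO clones, against 0.637, 0.361 and 0.354 in WT clones, so the groups overlapped. Per kilobase of merged exon the same ratio was 0.326 and 0.33 in TAZ-KO clones, against 0.506, 0.411 and 0.422 in WT clones, and the groups did not overlap, so the overlap depends on the length scaling. Without Bcl2l11 the ratio of CPM sums was 0.13 and 0.135 in TAZ-KO clones, against 0.192, 0.228 and 0.239 in WT clones, and the groups did not overlap. These sums carry no test and say nothing of protein levels, and which of the scalings is the fitting one depends on the library protocol.

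**Figure D3:**
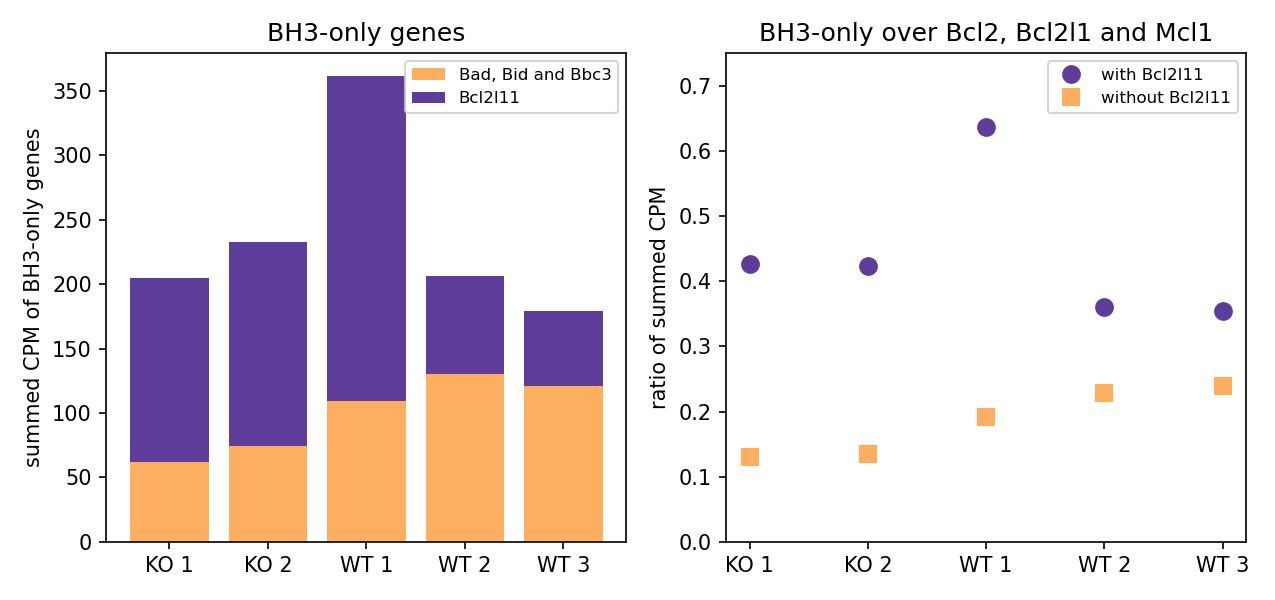
Left, summed CPM of the BH3-only genes per clone, split into Bcl2l11 (purple) and Bad, Bid and Bbc3 (orange). Right, the ratio of summed BH3-only CPM to that of Bcl2, Bcl2l1 and Mcl1 with Bcl2l11 (purple circles) and without it (orange squares), where the TAZ-KO clones at 0.13 and 0.135 lie below the WT clones at 0.192 to 0.239.

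Factors that act on the promoters of the family were examined through a list of 13 transcription factor genes, of which 12 were tested. By edgeR 0 were called, 5 were lower and 1 was higher at an unadjusted p under 0.05, and DESeq2 called 2, both lower. For this list and those below, the shares over all tested genes serve as background. At an unadjusted p under 0.05 in edgeR, 17.4% of genes differed in either direction and 9.41% were lower. DESeq2 called 5.25% of genes, and 3.11% as lower. The median log2 fold change of the 12 factors was -0.48, against -0.03 for all tested genes. Myc was at 211 and 249.7 CPM in TAZ-KO clones, against 304, 1091 and 1208 CPM in WT clones 1, 2 and 3 (log2 fold change -1.91, SE 0.60, adjusted p = 0.232), and fell in DESeq2 (adjusted p = 0.0209). MYC with MAX binds the E-box motif, which windows of Bax and Bbc3 hold, and binding at these promoters was not measured. Ddit3, the stress factor CHOP that induces BIM and PUMA, was at 12.6 and 16 CPM in TAZ-KO clones, against 16.3, 98 and 75.7 CPM in WT clones (adjusted p = 0.246), and fell in DESeq2 (adjusted p = 0.0307). Without either TAZ-KO clone, WT clone 2 or WT clone 3 the DESeq2 calls were lost (adjusted p = 0.153 to 0.412 for Myc and 0.172 to 0.474 for Ddit3).

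Foxo3 was at 15.5 and 12.3 CPM in TAZ-KO clones, against 20.5, 22.5 and 24.7 CPM in WT clones (log2 fold change -0.70, SE 0.25, adjusted p = 0.26). Its values had the library order of Bbc3, which 11.8% of all tested genes share. Bcl2l11, whose promoter window also holds the FOXO motif, did not have that order. The other FOXO gene of the list, Foxo1, was at 53.7 and 52.2 CPM in TAZ-KO clones, against 40.8, 54 and 46.5 CPM in WT clones. The groups overlapped in Foxo1 (log2 fold change 0.17, SE 0.21, adjusted p = 0.679). Trp53, the gene of p53, was at 80.2 and 63.8 CPM in TAZ-KO clones, against 84.2, 170 and 182 CPM in WT clones (log2 fold change -1.01, SE 0.37, adjusted p = 0.262), again with WT clone 1 next to the TAZ-KO clones. The transcript does not show whether a working p53 protein is present in these cells, which was not measured. E2f1, a cell cycle factor that can induce BH3-only genes, was the 1 gene higher at an unadjusted p under 0.05 and was chosen for that. It was at 69.8 and 90.9 CPM in TAZ-KO clones, against 60, 23.8 and 22.3 CPM in WT clones (adjusted p = 0.279). The part of any of these factors in the levels of the members was not tested.

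**Figure D4:**
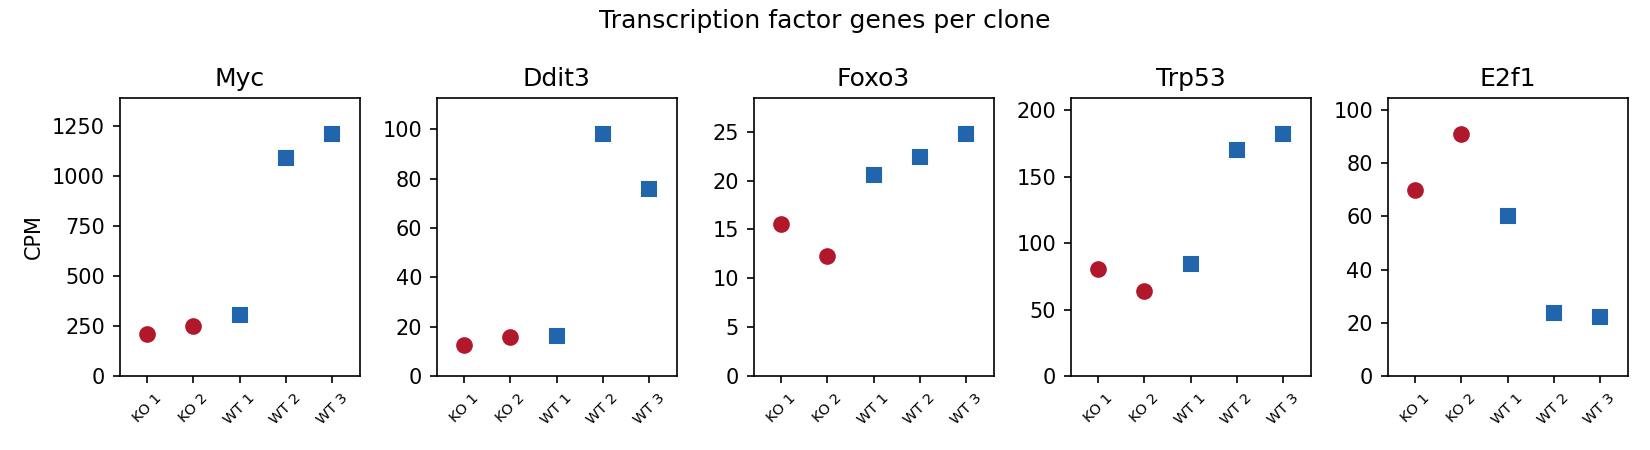
CPM (linear axis from 0) of Myc, Ddit3, Foxo3, Trp53 and E2f1 in TAZ-KO clones (red circles) and WT clones (blue squares), 1 point per library. In Myc, Ddit3, Foxo3 and Trp53 the TAZ-KO clones lie wholly below the WT clones, and WT clone 1 is the nearest to them. Of the 12 tested genes of the list, 7 lie wholly below and 1 wholly above, against 18.6% and 18.7% of all tested genes.

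Of 11 tested p53 target genes outside the family (12 in the list), 0 were called by edgeR, 1 was higher and 1 lower at an unadjusted p under 0.05, DESeq2 called 1, and the median log2 fold change was -0.33. Ccng1, the gene of cyclin G1, was at 55.3 and 54.5 CPM in TAZ-KO clones, against 33.4, 37.4 and 31.1 CPM in WT clones (log2 fold change 0.69, SE 0.19, adjusted p = 0.212), so it lay above every WT clone where Bbc3 and Bax lay below. The death receptor gene Fas was at 1.59 and 0.867 CPM in TAZ-KO clones, against 1.02, 26.1 and 19.9 CPM in WT clones (adjusted p = 0.257 in edgeR), and fell in DESeq2 (adjusted p = 0.0102), a call lost without any 1 clone other than WT clone 1 (adjusted p = 0.0875 to 0.312). The stress gene Sesn2 was at 13.2 and 29.3 CPM in TAZ-KO clones, against 18.9, 62.3 and 74.9 CPM in WT clones. Trp53inp1 was at 4.89 and 4.80 CPM in TAZ-KO clones, against 10.2, 8.04 and 5.12 CPM in WT clones (adjusted p = 0.34 for Sesn2 and 0.396 for Trp53inp1).

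Other BCL2 family genes were fixed as a list of 16, of which 9 were tested. By edgeR 0 were called, with 2 at an unadjusted p under 0.05, both lower. DESeq2 called 1, and the median log2 fold change was -0.11. Hrk, a BH3-only gene best known from neurons, had 1 and 2 counts in TAZ-KO clones, against 5, 170 and 75 counts in WT clones 1, 2 and 3. The ratio of TAZ-KO to WT was 0.0188 (exact 95% interval 0.00386 to 0.0557, counting error only), and WT clone 1 again sat with the TAZ-KO clones. Hrk did not pass edgeR (adjusted p = 0.216) and fell in DESeq2 (adjusted p = 0.00231), a call lost without either TAZ-KO clone or WT clone 2 (adjusted p = 0.104 to 0.126). Bmf, a BH3-only gene linked to cell detachment, was at 5.49 and 2.34 CPM in TAZ-KO clones, against 20.8, 9.26 and 6.11 CPM in WT clones (log2 fold change -1.62, SE 0.66, adjusted p = 0.283). Bcl2l13, of the mitochondrial outer membrane, was at 40.3 and 35.1 CPM in TAZ-KO clones, against 30.8, 84.8 and 95.2 CPM in WT clones (adjusted p = 0.363). The pro-survival gene Bcl2l2, which encodes BCL-W, was at 40.3 and 35.2 CPM in TAZ-KO clones, against 39.8, 62.8 and 55.5 CPM in WT clones (adjusted p = 0.364).

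Downstream of the family, all 13 genes of the arm that leads from mitochondria to caspases were tested. By edgeR 0 were called, 1 was higher at an unadjusted p under 0.05, DESeq2 called 0, and the median log2 fold change was 0.24, opposite in sign to the members. Aifm1, a flavoprotein of the intermembrane space, was at 63.3 and 60.8 CPM in TAZ-KO clones, against 47, 42.6 and 43 CPM in WT clones (log2 fold change 0.49, SE 0.18, adjusted p = 0.265). Vdac2, a channel protein that recruits BAK1 and BAX, was at 256 and 217 CPM in TAZ-KO clones, against 264, 332 and 366 CPM in WT clones (adjusted p = 0.362), and Vdac1 was at 264 and 283 CPM, against 229.6, 219 and 246 CPM (adjusted p = 0.519).

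Among 15 genes of binding partners and turnover of BCL2 family proteins, all tested, edgeR and DESeq2 called 0, and 2 were higher at an unadjusted p under 0.05 in edgeR (median log2 fold change 0.04). Ywhaq and Ywhaz encode 14-3-3 proteins, the class that holds BAD, and both lay above the WT range in TAZ-KO clones, as did 18.7% of all tested genes, while the 14-3-3 genes Ywhae (log2 fold change 0.16) and Ywhab (log2 fold change 0.04) overlapped. Ywhaq was at 133 and 128 CPM in TAZ-KO clones, against 109, 83.5 and 73.1 CPM in WT clones, and Ywhaz at 451 and 461 CPM, against 398, 279.9 and 238 CPM (adjusted p = 0.286 and 0.32). Casp8, whose product cleaves BID, was at 72.2 and 89.9 CPM in TAZ-KO clones, against 58.9, 57.4 and 59.6 CPM in WT clones (log2 fold change 0.47, SE 0.19, adjusted p = 0.287). Its transcript lay above every WT clone, as in 18.7% of all tested genes, and that of Bid below, as in 18.6%. Cleavage of the BID protein was not measured. Tpt1, which can bind MCL1 and BCL-XL, was at 515 and 357 CPM in TAZ-KO clones, against 803, 463 and 630.5 CPM in WT clones (adjusted p = 0.403).

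Clones of a carcinoma line can differ in the dosage of whole chromosomes, so each member was set beside the other tested genes of its chromosome. Values are log2 CPM minus the mean of the 5 libraries. Bid stood clear of its chromosome: it was at -0.98 and -0.37 in TAZ-KO clones, against 0.05, 0.62 and 0.67 in WT clones, while the median of the 537 other genes of chromosome 6 lay between -0.01 and 0.04 in every library. The 12 tested genes within 1 Mb of Bid had a median difference of -0.30, against -1.12 for Bid, and 1 of the 12 had a more negative fold change than Bid. Bbc3 was at -1.10 and -0.56 in TAZ-KO clones, and the median of 868 other genes of chromosome 7 was at -0.22 and 0.11. None of the 20 tested genes within 1 Mb of Bbc3 had a more negative fold change. Bax shares chromosome 7 and was at -0.51 and -0.26 in TAZ-KO clones, and 10 of the 67 tested genes within 1 Mb of it had a more negative fold change.

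Bcl2l1 and Bcl2l11 share chromosome 2, where the median of the 919 other genes was at -0.16 and -0.19 in TAZ-KO clones, against 0.11, 0.08 and 0.10 in WT clones, a difference of -0.27. The difference of Bcl2l1 on this scale was -0.73, and 4 of the 24 tested genes within 1 Mb of it had a more negative fold change. Bcl2l11 lay at 0.24 and 0.40 in TAZ-KO clones on the same chromosome. Of the 24 tested genes within 1 Mb of Bcl2l11, all 24 had a lower fold change than Bcl2l11 itself. Bak1 was at 0.03 and -0.29 in TAZ-KO clones, and the median of chromosome 17 was at 0.16 and -0.22 and that of the 33 genes within 1 Mb at 0.07 and -0.29. The lower Bak1 value of TAZ-KO clone 2 was thus shared by its neighbours. Mcl1 was at 0.10 and 0.22 in TAZ-KO clones, where the 54 genes within 1 Mb had medians of 0.02 and 0.21. Whether gene dosage sets any of these levels was not tested.

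**Figure D5:**
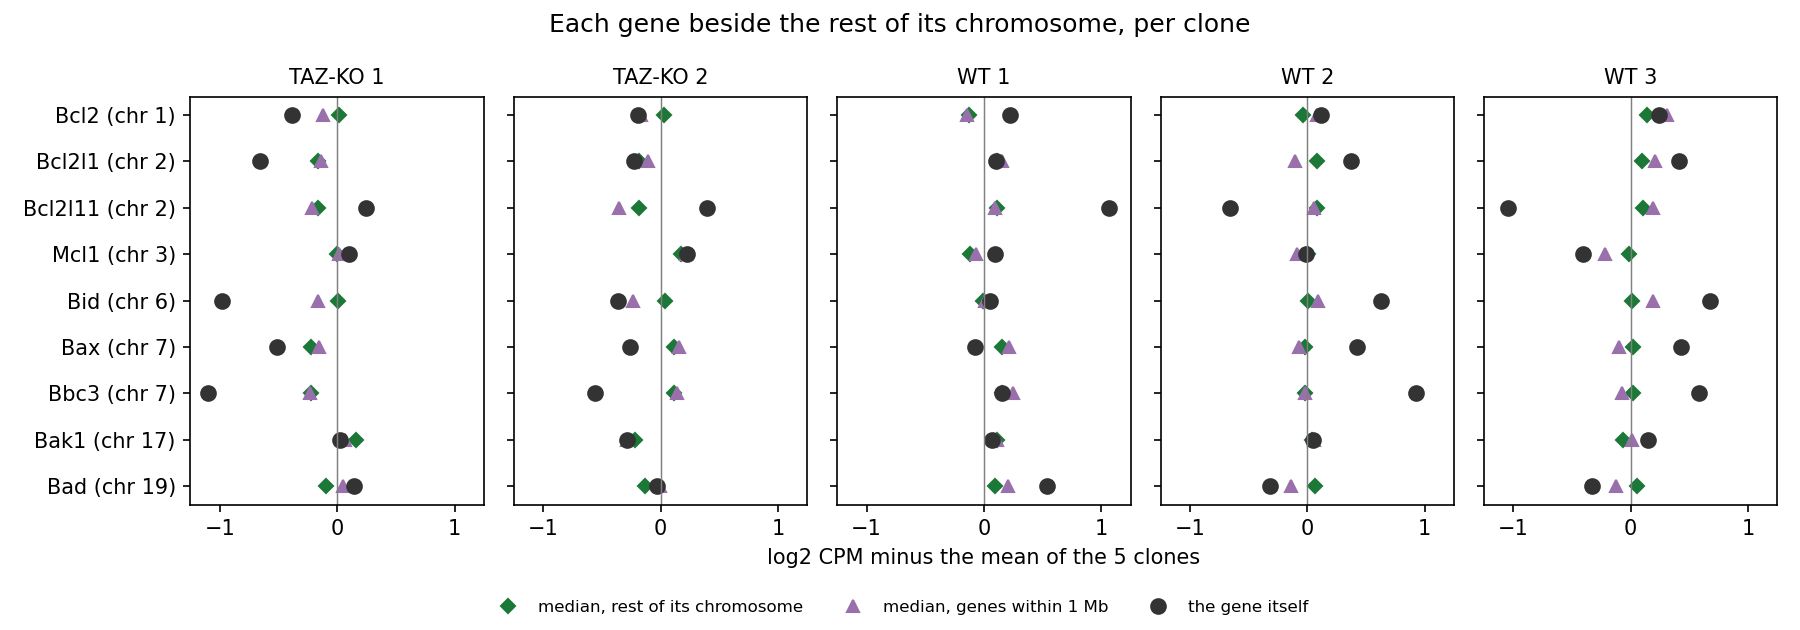
Log2 CPM minus the mean of the 5 libraries for each member (black circles), the median of the other tested genes of its chromosome (green diamonds) and the median of those within 1 Mb (purple triangles), 1 panel per clone. Bbc3 and Bid lie to the left of both medians in TAZ-KO clones, while Bak1 in TAZ-KO clone 2 lies at -0.29, next to its neighbours at -0.29.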

How the data were processed

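RNA was sequenced from 5 cultured 4T1 clones (2 TAZ-KO, 3 WT). The authors used cutadapt for trimming, STAR for mapping and UTAP for gene counts, and corrected the in vitro libraries for batch by surrogate variables (sva), a step the raw counts precede. The submitters' processing notes name mm10 and DESeq2. No source used here states how strand was handled. The deposited table holds raw counts, a signal scaled by size factors, regularised log2 values and the authors' own contrast (log2 fold change with p-values). Only the raw counts were used here. Each listed gene has at least 6 counts in some library.

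Counts were tested with edgeR 4.0.16 in R 4.3.3 (quasi-likelihood F-test, TMM, filterByExpr, genotype as the only term, adjusted p of 0.05), on 11975 genes, after the procedure was tested on simulated data. Standard errors were derived from the log2 fold change and F. An exact permutation of 3 against 2 clones cannot give a p under 0.1. Alternatives were DESeq2 size factors, total counts, other filters, DESeq2 1.42.0, limma-voom (limma 3.58.1), a block for the replicate number, 1 surrogate variable (sva 3.50.0), other thresholds and leaving out each library. DESeq2 without each library was added after seeing the data. Symbols were placed on GENCODE M21 (12644 of 13143 matched), whose merged exons gave lengths. Log2 CPM used a prior count of 2. Named genes were all members, Wwtr1 and, per list, any called gene and the 4 with the smallest p. 1 gene that this rule selects is not reported here. Others were chosen after their values were seen. The members and lists were chosen with earlier results of these data known.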

Additional observations from a re-analysis of the deposited data

How the results depend on the processing

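Directions were kept in every setting for Bcl2, Bcl2l1, Mcl1, Bax, Bak1, Bid and Bbc3. Bad and Bcl2l11 turned: with 1 surrogate variable their log2 fold changes were -0.33 and -0.45, with the replicate block that of Bad was -0.055, and leaving out single libraries gave -0.12 to 0.39 for Bad and -0.13 to 1.16 for Bcl2l11. The count of members called by edgeR was 0 and became 2 in DESeq2 (Bbc3 and Bid) and 0 to 5 when single libraries were left out, in edgeR and in DESeq2 alike. With 1 surrogate variable Bbc3 stayed above the threshold (adjusted p = 0.0585). The count of all genes called was 6 and became 10 without a low-count filter, 690 in DESeq2, 482 with 1 surrogate variable, 0 at an adjusted p of 0.01, 54 at 0.1, and 0 to 4598 when single libraries were left out (4598 without WT clone 1). With the replicate block it was 0. The numbers of the clones mark no shared batch in the labels, so the replicate block follows no stated design. Same-numbered TAZ-KO and WT clones deviated from their group means with a correlation of -0.119. With 2 TAZ-KO clones these deviations mirror each other, so this value cannot show whether a batch was shared. Why these settings differ was not tested, beyond the smaller number of clones. Scaling by total counts or DESeq2 size factors left 6 members without overlap, and cannot move a ratio within a library. Per kilobase the log2 ratio of group means was -0.45 for BH3-only over pro-survival genes, against -0.085 for CPM sums, and -0.42 for effectors over pro-survival genes, against -0.29, and in both ratios the groups overlapped for CPM sums and not per kilobase. Counts of 194 and more per member leave the spread between libraries, not depth, as the limit.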

Other observations

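The library orders seen in the members were about as frequent among genes around the family as among all genes. Of 60 tested genes on the lists of other family members, regulators, partners, downstream genes and p53 targets, 8 (13.3%) had the order of Bcl2l11, with WT clone 1 highest, then the TAZ-KO clones, then WT clones 2 and 3, against 10.2% of all tested genes. They were chosen after their values were seen. Among them, Casp9, the initiator caspase of the apoptosome, was at 25.2 and 27.5 CPM in TAZ-KO clones, against 36.1, 10.8 and 11 CPM in WT clones 1, 2 and 3. The caspase inhibitor gene Xiap was at 142 and 172 CPM in TAZ-KO clones, against 175, 104 and 108 CPM in WT clones. Bok, a BAX-like effector, was at 99.1 and 121 CPM in TAZ-KO clones, against 135.8, 39 and 44.6 CPM in WT clones. The order of Bbc3, with TAZ-KO clones lowest and WT clones 2 and 3 highest, was also found in 8 of the 60 genes (13.3%, against 11.8% of all tested genes): Ddit3, Foxo3, Hrk, Mdm2, Myc, Rela, Trp53 and Vdac2. These shares are descriptions of 5 clones, carry no test, and lie near those of all genes.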
